A study of Rattus norvegicus with 15 samples.

Results

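The axon guidance ligands and receptors on these arrays were found by gene symbol. The symbols searched were those of semaphorins, plexins, neuropilins, netrins, Dcc, the Unc5 receptors, Slits, Robos, ephrins, Eph receptors, Nogo and its receptor (Rtn4, Rtn4r) and the chimaerins Chn1 and Chn2. They took 36 of the 5088 probes and 30 of the 4153 named genes. One of them, Unc50, encodes a Golgi membrane protein and came in by its name alone. It is not a netrin receptor and its values stand apart below. Plexins and EphB receptors had no probe so named in the annotation used here. The RNA came from dissociated L4 and L5 dorsal root ganglion (DRG) cells of juvenile rats, cultured in Sato medium on poly-L-lysine or myelin, without the substrate of each array being given. Cells treated with 1.5 mM dibutyryl cAMP (dbcAMP, an analog of cyclic AMP that enters cells) were compared with cells in medium alone, after 1, 3, 6, 12 or 18 h and with 3 arrays at each of the 5 times. The earliest group is 1 h by its own label, where the treatment protocol lists 0 h. The dye was Cy5 for treated cells and Cy3 for control cells throughout the 15 arrays, with no dye swap, so every value below is a log2 ratio of treated over control cells, 0 stands for equal signal, and a dye bias of a probe adds to its ratio at all times.

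Growing axons steer by secreted and membrane-bound cues. Slits repel axons through Robo receptors. Netrin-1 attracts through Dcc and repels through Dcc with Unc5 receptors. Sema3A collapses sensory growth cones through neuropilin-1 and plexins, and ephrins act on Eph receptors at cell contact. Nogo (Rtn4), a protein of myelin, inhibits axon growth through the Nogo receptor Rtn4r. Cyclic AMP bears on this steering, since in cultured Xenopus spinal neurons its level sets whether netrin-1 attracts or repels the growth cone.

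At 18 h of dbcAMP, 10 of the 36 probes were lower in treated than in control cells, against 11.3% of all 5006 probes tested, and 1 was higher, against 10.6% (limma on log2 ratios, 1 fit of all 15 arrays, adjusted p under 0.05 after Benjamini-Hochberg adjustment over all probes). The lower ones were probes of Chn1, Slit1, Slit2, Sema3a, Unc5b, Nrp2, Unc5a, Ntn1, Rtn4r and Ntn3, and the higher one was that of the receptor Epha3. With arrays centred on the median of each plate of probes, described further on, 6 probes were lower (10.1% of all probes) and 5 higher (9.97%). These directions are relative to the plate median. In the uncentred values all 11 called probes had the same sign on the 3 arrays of 18 h. This is no separate support, as these probes were picked by the mean of the same arrays. The median over the 36 probes was -0.11, against 0.01 over all probes, and 24 of the 36 means were below 0, against 48.46% of all probes. The earlier times had fewer calls in this fit. At 1 h 3 probes were lower (1.6% of all probes) and none was higher (0.732%), and at 3 h 3 were lower (1.94%) and none higher (0.931%). The same 3 probes, of Chn1, Slit1 and Slit2, were lower at all 5 times. At 6 h 4 probes were lower (2.35%) and none higher (1.84%). Without array 1, 2 or 3 of that time the count was 1, 1 and 2. The shares of all probes called, both directions together, were then 2.41%, 3% and 2.05%. Without array 1 or 2 of 6 h only 34 members were tested. Chn1 and Chn2 had no ratio on array 3 and then had fewer than 2 arrays. Chn1, called at 6 h, thus dropped out untested. At 12 h 7 were lower (4.77%) and 2 higher (3.81%). Without array 1 of 12 h the count at that time was 3 and without array 2 it was 5, all of them lower, and 8 without array 3. The shares of all probes called, both directions together, were then 2.86%, 5.1% and 11%. The rise in calls from 3 h to 18 h depended on the processing. With array weights 11 members were called at 3 h (11.2% of all probes) and 9 at 18 h (13.4%). From the arrays of a time alone it was 9 at 3 h (6.99%) and 5 at 18 h (3.66%). With arrays scaled to a common spread it was 7 at 3 h (6.32%) and 8 at 18 h (11.8%). In the main fit the median of the members was -0.05 at 1 h, -0.05 at 3 h, -0.25 at 6 h and -0.12 at 12 h. In all, 13 probes of 12 genes were called at 1 time or more, and the other 23 had means between -0.96 and 0.60. The share of all probes called at 1 time or more was not computed, and 22% were called at 18 h alone. This count is therefore no result about the members. Nothing states that replicate arrays were hybridised with RNA of separate cultures. The p-values therefore set a mean against a spread between arrays that can be purely technical. That spread was estimated from the arrays of all 5 times, while an SD printed beside a mean covers only the arrays of its time. Arrays are few, which limits the precision of every ratio, and the ratios are of bulk cultures, in which fewer cells of a type and less RNA per cell cannot be told apart.

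**Figure D1:**
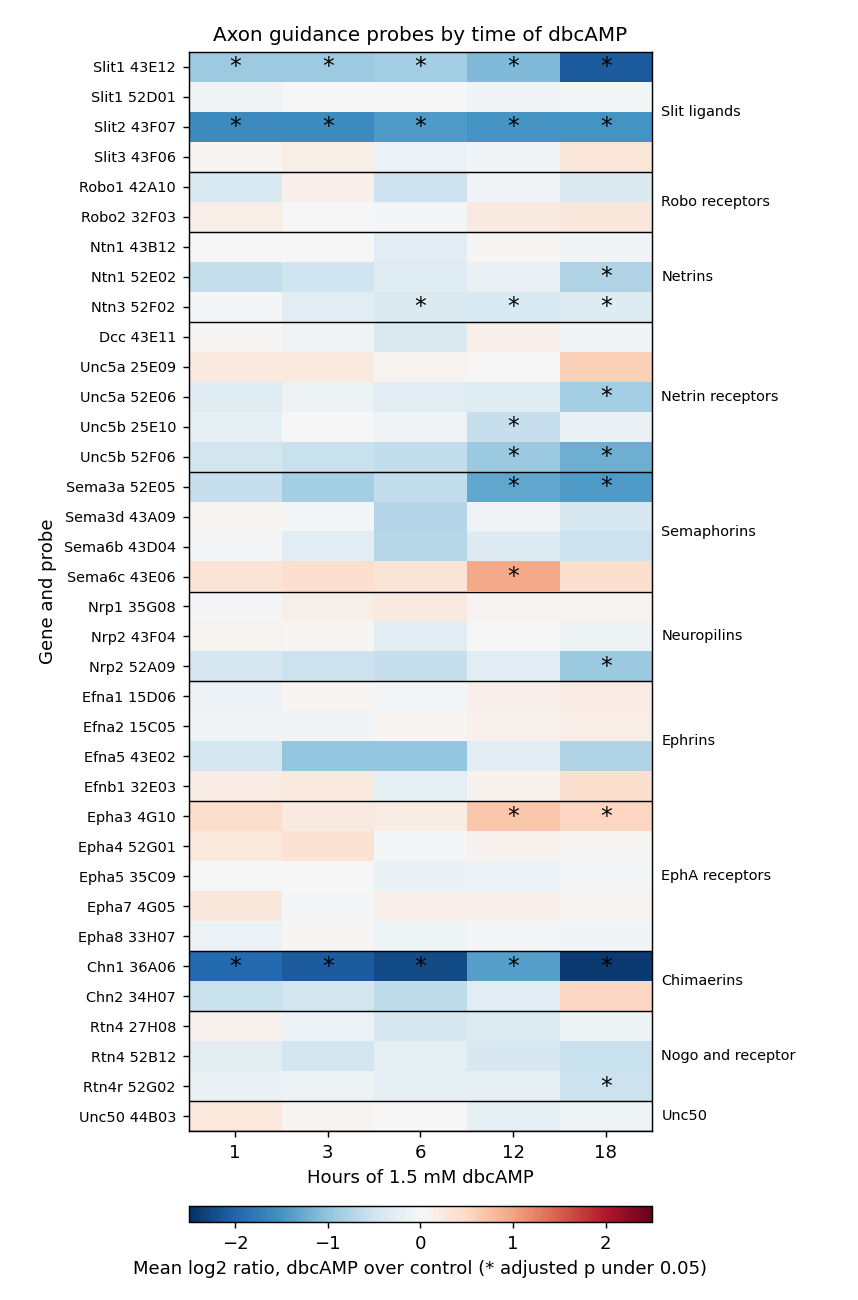
Mean log2 ratio of dbcAMP-treated over control cells (colour, blue below 0 and red above 0) for each of the 36 probes (vertical axis, grouped by family) at 1, 3, 6, 12 and 18 h (horizontal axis), 3 arrays per time. Asterisks mark an adjusted p under 0.05. Slit1 43E12, Slit2 43F07 and Chn1 36A06 are marked at all 5 times, and 11 probes are marked at 18 h.

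Facts of the arrays bear on all of these values. Array medians of the ratio ran from 0.997 to 1.02, and 28 to 105 probes per array had no ratio. Log2 ratios were narrow on 9 arrays (SD 0.357 to 0.434) and wide on 6 (SD 0.627 to 0.703), namely array 3 of 6 h, arrays 1 and 2 of 12 h and all 3 arrays of 18 h. Ratios hold no level, so the markers of the labelled cells can show only whether they moved. Of all probes tested at 18 h, 10.6% were higher and 11.3% lower. At that time 2 of 23 probes of sensory neuron markers were higher and 4 lower (median -0.11, means between -0.84 and 1.03). Schwann cell and satellite glia markers had 4 higher and 4 lower of 19 (median -0.17), fibroblast markers 2 and 3 of 12 (median -0.13), macrophage markers 1 and 1 of 7 (median -0.04) and endothelial markers 0 and 0 of 7 (median 0.04). The part of changes in cell types in the values below was not tested.

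Slit1 and Slit2, ligands of Robo receptors, each had 1 probe with a ratio below 0 from the first time on. Both probes were on plate 43, where 20.8% of probes were lower at 1 h, against 1.6% of all probes. Slit1 probe 43E12 was at -0.96, -0.81 and -0.94 on the 3 arrays of 1 h, at -0.84, -0.92 and -0.95 at 3 h and at -0.86, -0.61 and -1.08 at 6 h. It was at -1.89, -0.26 and -1.15 at 12 h and at -2.31, -2.09 and -1.82 at 18 h. All 15 arrays were below 0, and the 3 arrays of 18 h lay below every array of 1, 3 and 6 h but overlapped those of 12 h. The mean was -0.91 at 1 h (adjusted p = 0.0428 by limma) and -2.07 ± 0.24 at 18 h (SD, n = 3 arrays, adjusted p = 2.25e-05), a ratio of 0.238. Leaving out any 1 array of the time ended the call of this probe at 1, 3 and 6 h, with adjusted p between 0.0765 and 0.255, and so did leaving out array 1 of 12 h (adjusted p = 0.0638), but not leaving out an array of 18 h. With plate centring 43E12 was not called at 1, 3, 6 or 12 h (adjusted p = 0.11, 0.0952, 0.405 and 0.0526) but was at 18 h (0.00026). The second Slit1 probe, 52D01, lay close to 0 throughout. Its means were between -0.09 and 0.01, with -0.16, -0.11 and 0.13 on the arrays of 18 h.

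Slit2 probe 43F07 had a flat course. It was at -1.50, -1.82 and -1.43 at 1 h, at -1.53, -1.56 and -1.68 at 3 h and at -1.25, -0.88 and -2.09 at 6 h. It was at -2.09, -0.92 and -1.43 at 12 h and at -1.31, -1.36 and -1.83 at 18 h. All 15 arrays were below 0 and the 5 times overlapped. The mean at 18 h was -1.50 ± 0.29 (SD, n = 3, adjusted p = 0.000404), a ratio of 0.354, and at 1 h it was -1.58 (adjusted p = 0.00207). The difference between these 2 times was 0.08 (adjusted p = 0.93 by limma). The part of a dye bias of the probe in these ratios was not tested. Slit3 43F06, the third ligand of the family, did not pass the test at any time. It was at 0.62, 0.14 and 0.16 at 18 h (mean 0.31, adjusted p = 0.374). Neither receptor passed the test either. Robo1 42A10 had means between -0.51 and 0.12 over the 5 times and Robo2 32F03 between -0.05 and 0.28.

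The lowest member at 18 h was Chn1, which encodes α-chimaerin, a GTPase-activating protein for Rac that acts downstream of EphA4. Probe 36A06 was at -1.998, -2.01 and -1.80 at 1 h, at -1.90, -2.56 and -1.78 at 3 h and at -2.43 and -2.05 at 6 h, where array 3 had no ratio and the mean rests on 2 arrays. It was at -1.99, -0.81 and -1.31 at 12 h and at -2.48, -2.14 and -2.57 at 18 h. All 14 ratios were below 0, and the ranges of 1 h and 18 h did not overlap, while that of 3 h overlapped both. The mean at 18 h was -2.40 ± 0.22 (SD, n = 3, adjusted p = 8.09e-06), the 11th lowest of all probes tested. Its difference from the 1 h mean was -0.46 (standard error 0.29, adjusted p = 0.463). Chn2 34H07, of the related β-chimaerin, had discordant arrays at 18 h, at 3.15, -1.03 and -0.58, and did not pass the test at any time (adjusted p = 0.558 at 18 h), with 13 of 14 ratios below 0.

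**Figure D2:**
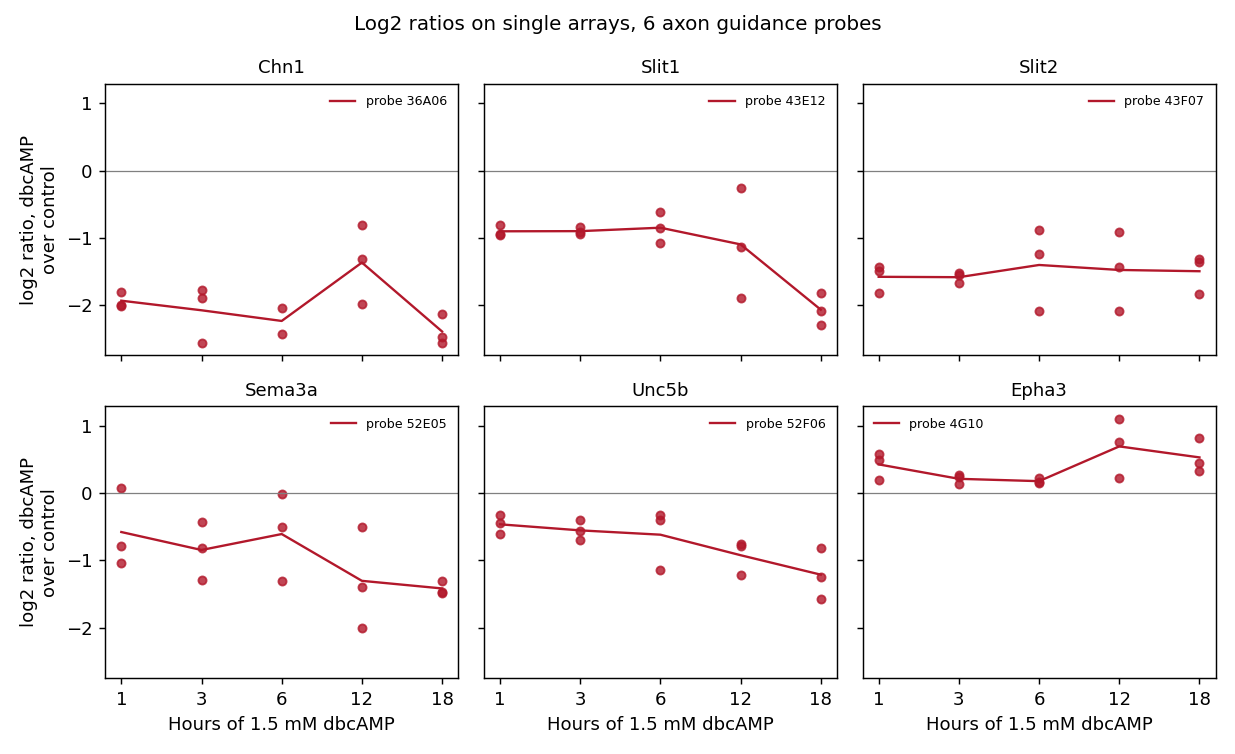
Time courses, with hours of dbcAMP on the horizontal axis (evenly spaced) and the log2 ratio, treated over control, on the vertical axis, for 1 probe each of Chn1, Slit1, Slit2, Sema3a, Unc5b and Epha3. Each point is an array and each line runs through the means. Chn1, Slit1 and Slit2 lie below 0 at every time, and Epha3 lies above 0 on all 15 arrays.

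Of the netrins and their receptors, probes of 4 genes were lower at 18 h. Unc5b, a receptor for repulsion by netrin-1, had 52F06 at -0.61, -0.33 and -0.45 at 1 h, at -0.39, -0.57 and -0.70 at 3 h and at -1.13, -0.39 and -0.32 at 6 h. It was at -0.76, -0.79 and -1.22 at 12 h (mean -0.92, adjusted p = 0.00504) and at -1.57, -0.81 and -1.25 at 18 h. It was below 0 on all 15 arrays, and the arrays of 18 h lay below all those of 1 h and 3 h and overlapped those of 6 h and 12 h. The mean at 18 h was -1.21 ± 0.38 (SD, n = 3, adjusted p = 0.000286), a ratio of 0.432.

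Its other probe, 25E10, passed the test at 12 h, at -0.59, -0.72 and -0.43 (mean -0.58, adjusted p = 0.023, and 0.106 without array 1 or 0.119 without array 2). At 18 h it was at -0.20, -0.60 and 0.30 (adjusted p = 0.432). Unc5a, a receptor of the same family, also had probes that differed. Probe 52E06 was at -0.18, -0.46 and -0.25 at 1 h, at 0.04, -0.13 and -0.29 at 3 h, at -0.09, -0.25 and -0.47 at 6 h and at -0.46, -0.28 and -0.18 at 12 h, none of which passed. At 18 h it was at -0.90, -1.31 and -0.41 (mean -0.87 ± 0.45, SD, n = 3, adjusted p = 0.000937), where the highest array overlapped those of 1 h, 6 h and 12 h. Probe 25E09 was at 0.89 and 0.32 at 18 h, with no ratio on array 2 (mean 0.60 over 2 arrays, adjusted p = 0.173). Dcc 43E11, the receptor for attraction, did not pass the test at any time and was at -0.24, 0.19 and -0.15 at 18 h.

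The ligand netrin-1, Ntn1, was measured by 2 probes. Probe 52E02 was at -0.69, -0.60 and -0.51 at 1 h (adjusted p = 0.0847), at -0.65, -0.53 and -0.33 at 3 h, at -0.59, -0.41 and 0.09 at 6 h and at -0.72, -0.12 and 0.25 at 12 h. At 18 h it was at -0.69, -0.79 and -0.77 (mean -0.75 ± 0.05, SD, n = 3, adjusted p = 0.00474). The arrays of 18 h overlapped those of 1 h and 12 h, and 13 of 15 arrays were below 0. With plate centring the mean at 18 h was -0.42 (adjusted p = 0.0685). The other probe, 43B12, was at -0.18, -0.06 and 0.07 at 18 h (adjusted p = 0.878). Ntn3 52F02, of another netrin, had small ratios of the same sign. It was at -0.34, -0.42 and -0.35 at 6 h (adjusted p = 0.0466), at -0.30, -0.35 and -0.48 at 12 h (adjusted p = 0.027) and at -0.32, -0.41 and -0.26 at 18 h (mean -0.33, adjusted p = 0.0229). Before that it was at -0.04, -0.18 and 0.12 at 1 h and at -0.29, -0.15 and -0.44 at 3 h, and 14 of 15 arrays were below 0. Its call was lost without any 1 array of 6 h or of 12 h (adjusted p between 0.0757 and 0.152), and at 18 h without array 1 (0.0745) or array 2 (0.108). With arrays scaled to a common spread its mean at 18 h was -0.20 (adjusted p = 0.206), and with plate centring 0.00 (0.998).

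Sema3a, the secreted semaphorin that repels sensory axons, was lower at 12 h and 18 h. Probe 52E05 was at -0.78, -1.04 and 0.09 at 1 h, at -0.43, -0.81 and -1.29 at 3 h and at -0.51, -0.01 and -1.31 at 6 h. It was at -2.01, -1.40 and -0.50 at 12 h and at -1.47, -1.30 and -1.48 at 18 h. The 3 arrays of 18 h lay close together, and 14 of 15 arrays were below 0. The mean was -1.30 at 12 h (adjusted p = 0.0137, and 0.14 without array 1 or 0.0722 without array 2) and -1.42 ± 0.10 at 18 h (SD, n = 3, adjusted p = 0.00343), a ratio of 0.374. Sema6c 43E06, of a transmembrane semaphorin, was higher at 12 h, at 1.52, 0.85 and 0.50 (mean 0.96, adjusted p = 0.0152). It was at 0.57, 0.16 and 0.53 at 18 h (adjusted p = 0.185), and without array 1 of 12 h its mean there was 0.67 (adjusted p = 0.149), with adjusted p = 0.0532 without array 2. Sema3d 43A09 and Sema6b 43D04 did not pass the test at any time, with means at 18 h of -0.39 and -0.53.

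Of the neuropilins, Nrp1 35G08, the ligand-binding receptor of Sema3A, did not pass the test at any time. Its means were between -0.02 and 0.24. Nrp2, which binds other class 3 semaphorins, had probe 52A09 at -0.13, -0.36 and -0.75 at 1 h, at -0.35, -0.45 and -0.83 at 3 h, at -0.09, -0.26 and -1.40 at 6 h and at -0.57, -0.04 and -0.27 at 12 h. At 18 h it was at -1.03, -0.73 and -1.02 (mean -0.93 ± 0.17, SD, n = 3, adjusted p = 0.00677). All 15 arrays were below 0, and those of 18 h overlapped those of 1 h, 3 h and 6 h. With plate centring the mean at 18 h was -0.60 (adjusted p = 0.0628). Its second probe, 43F04, was at -0.37, 0.07 and -0.07 at 18 h (adjusted p = 0.708).

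Epha3, a receptor for ephrin-A ligands, was the member higher at 18 h. Probe 4G10 was at 0.59, 0.20 and 0.50 at 1 h, at 0.24, 0.13 and 0.27 at 3 h and at 0.15, 0.16 and 0.23 at 6 h. It was at 0.76, 1.11 and 0.22 at 12 h and at 0.83, 0.33 and 0.45 at 18 h. All 15 arrays were above 0, which held for no other member, and the times overlapped. The mean was 0.70 at 12 h (adjusted p = 0.0107) and 0.53 ± 0.26 at 18 h (SD, n = 3, adjusted p = 0.0195), a ratio of 1.45. Without array 1 of 18 h the adjusted p at 18 h was 0.152, and the mean was 0.34 (adjusted p = 0.106) with plate centring and 0.32 (0.0544) with arrays scaled to a common spread. At 12 h the call was lost without array 1 (0.0756) or array 2 (0.0954). The other EphA probes, of Epha4, Epha5, Epha7 and Epha8, did not pass the test at any time and had means between -0.16 and 0.36. Of the ephrins, none of the 4 probes passed. Efna5 43E02, a ligand of EphA receptors, was below 0 on 14 of 15 arrays, at -1.16, -0.07 and -1.005 at 18 h (adjusted p = 0.101). Efnb1 32E03 was at 0.12, 0.80 and 0.29 at 18 h (adjusted p = 0.141). Efna1 and Efna2 had means at 18 h of 0.21 and 0.17.

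Rtn4r, the receptor through which Nogo, MAG and OMgp inhibit axon growth, was lower at 18 h. Probe 52G02 was at -0.81, -0.29 and -0.52 at 18 h (mean -0.54 ± 0.26, SD, n = 3, adjusted p = 0.012, and 0.104 without array 1) and at -0.00, -0.31 and -0.17 at 1 h, with overlap by 1 array of each time. Its mean at 18 h was -0.21 (adjusted p = 0.319) with plate centring and -0.32 (0.0731) with arrays scaled to a common spread. In between the 2 times it was at -0.08, -0.03 and -0.28 at 3 h, at -0.24, -0.40 and -0.03 at 6 h and at -0.56, 0.08 and -0.22 at 12 h. Its ligand Rtn4, or Nogo, did not pass the test with either of its probes. Probe 52B12 was at -0.10, -0.86 and -0.71 at 18 h (adjusted p = 0.0775). Probe 27H08 was at -0.31, -0.34 and -0.56 at 6 h (adjusted p = 0.0512) and at -0.04, -0.04 and -0.29 at 18 h (adjusted p = 0.451). Unc50 44B03, the Golgi protein, had means between -0.23 and 0.25 and was not called.

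There were 6 genes with 2 probes each, which makes a comparison within a gene possible on the same arrays. For 5 of these 6 genes the probes differed (exact sign-flip permutation test, two-sided, over the difference on each array, adjusted over the 6 genes, chosen after the values were seen). Slit1 52D01 lay above 43E12 on 15 of 15 arrays, by 1.13 ± 0.60 (SD, n = 15, exact adjusted p = 0.000183), and Unc5b 52F06 lay below 25E10 on 15 of 15, with a mean difference of -0.54 ± 0.50 (exact adjusted p = 0.000183), and for both the unadjusted p was 6.1e-05, the smallest that 15 arrays can give. For Nrp2 the mean difference, 52A09 minus 43F04, was -0.50 ± 0.30, with 13 of 15 arrays below 0 (exact adjusted p = 0.000488). For Unc5a, 52E06 minus 25E09 was -0.51 ± 0.55 over 14 arrays, 13 of them below 0 (exact adjusted p = 0.00422). For Ntn1, 52E02 minus 43B12 was -0.41 ± 0.61, with 13 of 15 below 0 (exact adjusted p = 0.0288). For Rtn4 the difference was -0.21 ± 0.43, with 12 of 15 below 0 (exact adjusted p = 0.0812). The arrays of different times are not replicates of 1 condition, so these p-values describe the arrays. A constant dye bias of a probe or an offset between plates would enter every such difference. The test cannot tell either from a difference in response to dbcAMP. At 18 h, 4 of the 6 probes from plate 52 were lower and 1 of the 6 partner probes was, that of Slit1, whose probe on plate 52 was at -0.05. Of all probes on plate 52, 39.6% were lower at 18 h. The partner probes were on plates 43, 25 and 27, where 42.7%, 15.6% and 7.29% of all probes were lower. No gene with 2 probes was called by both of them at 18 h. What transcripts or sequences the probes hold was not examined, as no probe sequence was used here.

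**Figure D3:**
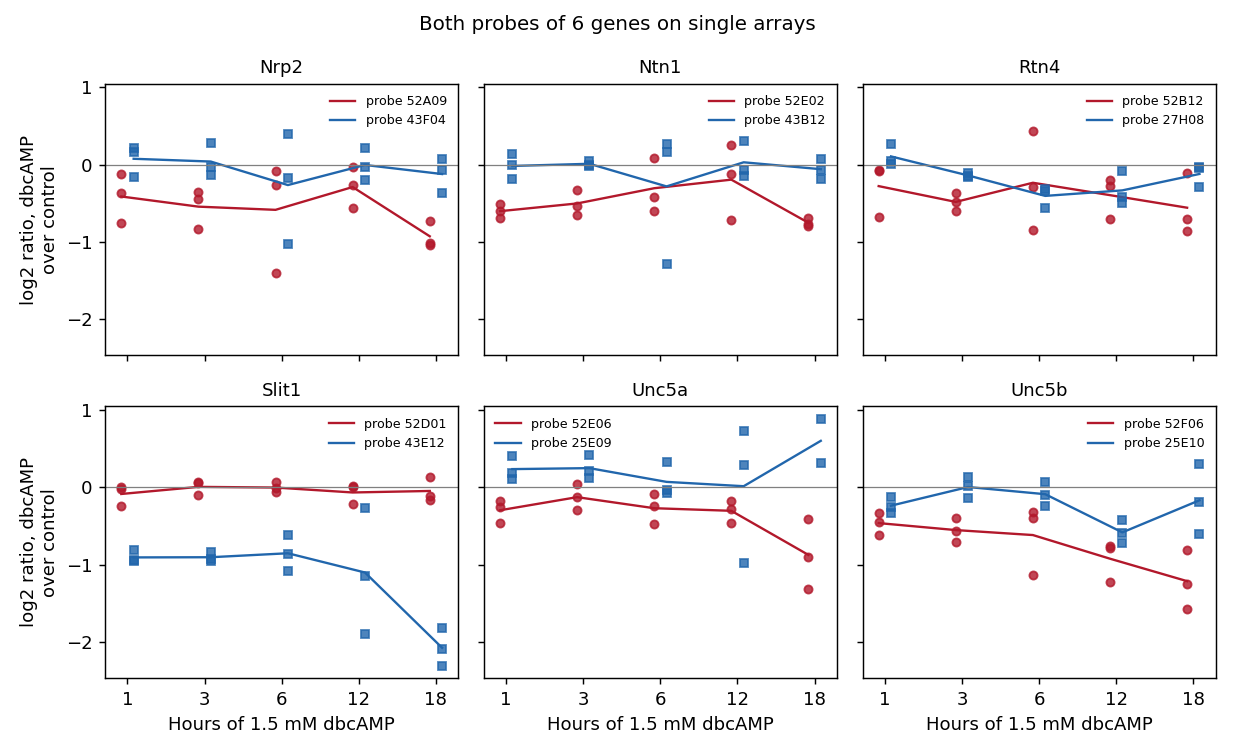
Time courses, with hours of dbcAMP on the horizontal axis and the log2 ratio, treated over control, on the vertical axis, for both probes of Nrp2, Ntn1, Rtn4, Slit1, Unc5a and Unc5b. Circles are the probe on plate 52, squares the probe on another plate, each point is an array, and each line runs through the means. Slit1 52D01 lies near 0 where 43E12 is at -2.07 at 18 h, and Unc5b 52F06 lies below 25E10 on every array.

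The place of a probe in the probe set moved with these values. The number before the letter in a probe's name was read as its plate, 53 plates of 96 probes in all, which the sources do not state in words. Plates 43 and 52 held 10 members each. On plate 43 41 of 96 probes were lower at 18 h (42.7%, median of the plate -0.51), and on plate 52 38 of 96 (39.6%, median -0.34). The plate of Chn1, 36, had 36 of 95 lower (37.9%, median -0.43). At 1 h, 20.8% of the probes of plate 43, 2.11% of plate 52 and 13.7% of plate 36 were lower. Of the 10 lower members at 18 h, 7 were on plate 52, 2 on plate 43 and 1 on plate 36. No member on plates 1 to 35 was lower, of 13, against 5.43% of all probes on those plates, and 10 of the 23 members on plates 36 to 53 were lower, against 23.2% of all probes there. The border between plates 35 and 36 was chosen after results were seen. The part of the plate in the values of its members was not tested beyond the centring given next. Within its own plate Chn1 had the lowest mean at 18 h, Sema3a stood at place 4 from the lowest, Slit1 43E12 at place 9, Unc5b 52F06 at place 11, Slit2 at place 24 and Ntn3 at place 50.

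With each array centred on the median of each plate, 11 members were again called at 18 h, but only 6 of them were in both sets. These were Chn1 at -2.01, Slit1 43E12 at -1.54, Sema3a at -1.09, Slit2 at -0.97, Unc5b 52F06 at -0.88 and Unc5a 52E06 at -0.54, all lower. The other 5 after centring were higher, namely Sema6c at 0.955, Slit3 at 0.84, Ntn1 43B12 at 0.47, Dcc at 0.46 and Nrp2 43F04 at 0.41 (adjusted p = 0.00404, 0.00605, 0.0387, 0.0244 and 0.0464), all from plate 43. Nrp2 52A09, Ntn1 52E02, Ntn3, Rtn4r and Epha3 were no longer called. At the earlier times Slit1 43E12 was not called after this centring (adjusted p = 0.11 at 1 h), while Slit2 and Chn1 were at -1.43 and -1.70 at 1 h and still called. The direction of Sema6c, Epha3 and the 6 genes named as lower in both sets did not turn. That of Ntn1 43B12, Dcc and Nrp2 43F04 did. Their uncentred means at 18 h were below 0, at -0.06, -0.07 and -0.12, so they were higher only relative to the median of plate 43.

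**Figure D4:**
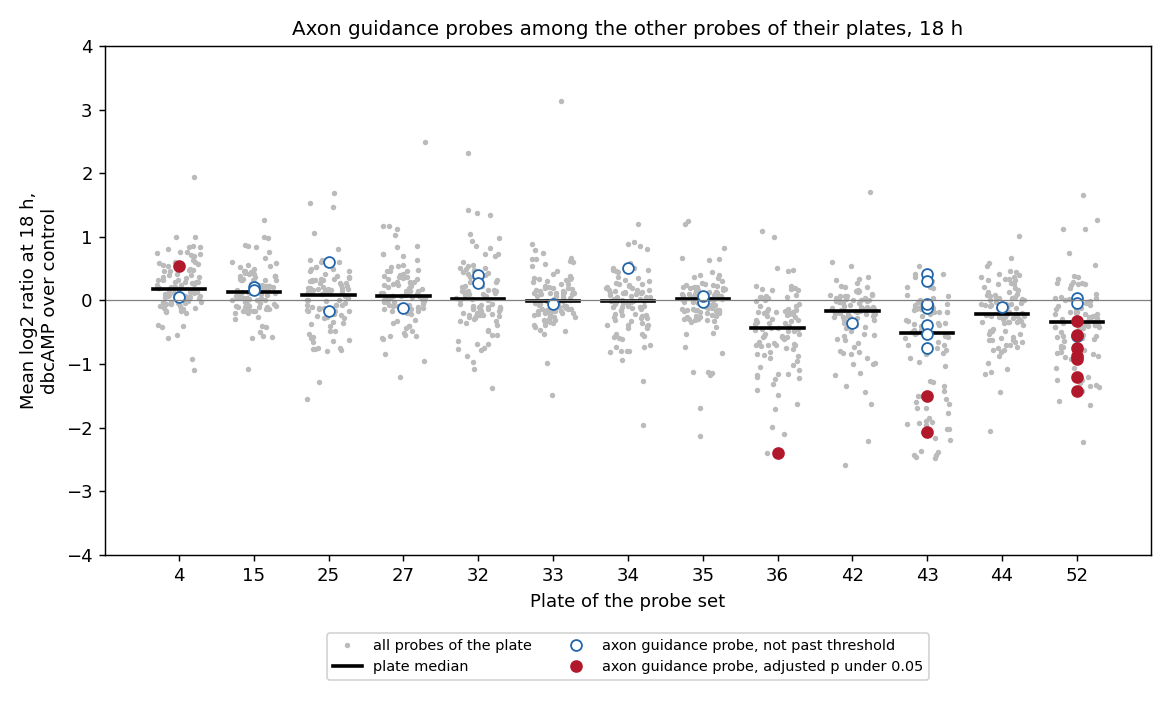
Mean log2 ratio at 18 h (vertical axis) of all probes (grey points, shifted sideways at random) on the 13 plates that hold axon guidance probes (horizontal axis), with the median of each plate as a black line. Filled red circles are axon guidance probes past the threshold and open blue circles the others. The medians of plates 36, 43 and 52 lie at -0.43, -0.51 and -0.34, and all 10 lower members lie on these 3 plates.

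No member passed the test of the difference between 18 h and 1 h, in which a constant dye bias of a probe cancels. Of all 4995 probes tested 1.18% were higher at 18 h than at 1 h and 1.56% were lower (limma, adjusted p under 0.05), and 4 of the 36 members had an unadjusted p under 0.05, against 16.7% of all probes. The largest change among them was that of Slit1 43E12, at -1.17 (standard error 0.30, adjusted p = 0.0586). It passed with array weights (adjusted p = 0.0188) and in a fit without the 3 wide arrays of 6 h and 12 h (adjusted p = 0.00245). It was -0.27 (adjusted p = 0.678) with arrays scaled to a common spread and -0.79 (adjusted p = 0.218) with plate centring. The others were Unc5b 52F06 at -0.75 (adjusted p = 0.125), Unc5a 52E06 at -0.58 (adjusted p = 0.172) and Ntn3 at -0.30 (adjusted p = 0.279). With plate centring they were at -0.56, -0.38 and -0.10 (adjusted p = 0.318, 0.439 and 0.794). Not among these 4 were Sema3a, at -0.84 (standard error 0.41, adjusted p = 0.321), and Slit2, at 0.08 (adjusted p = 0.93). An F test across the 5 times called no member, against 1.87% of all probes. In it 5 of the 36 members had an unadjusted p under 0.05, against 14.7% of all probes.

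Promoters of the members were read for the binding site of CREB, the factor through which cyclic AMP acts on many genes. RefSeq promoters of build GRCr8, from 250 bases before to 50 after a gene's start, matched 24 of the 30 genes, with 26 promoters. The full site TGACGTCA was in none of the 26, against 1.83% of all 33469 promoters, and the shorter site TGACG, searched on both strands and contained in any full site, was in 7 of the 26, that of Unc50 among them, against 21.2%. Of the genes lower at 18 h, Ntn3 and Rtn4r held the shorter site and Unc5b, Unc5a, Nrp2 and Chn1 did not, nor did Epha3. Those of Slit1, Slit2, Sema3a and Ntn1 were not read here. The first 2 are shown for their shorter site, in capitals (read on either strand), Unc5b as the lower gene with 2 concordant probes at 12 h, and Epha3 as the gene that was higher. A match of letters is a description and no binding was measured.
Ntn3, chr10:13744506-13744805, minus strand: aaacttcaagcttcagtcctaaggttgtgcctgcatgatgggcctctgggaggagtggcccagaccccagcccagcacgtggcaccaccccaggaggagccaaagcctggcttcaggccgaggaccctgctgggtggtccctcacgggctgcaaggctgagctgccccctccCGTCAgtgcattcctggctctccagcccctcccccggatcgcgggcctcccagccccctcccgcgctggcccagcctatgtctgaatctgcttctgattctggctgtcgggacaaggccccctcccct
Rtn4r, chr11:96373505-96373804, minus strand: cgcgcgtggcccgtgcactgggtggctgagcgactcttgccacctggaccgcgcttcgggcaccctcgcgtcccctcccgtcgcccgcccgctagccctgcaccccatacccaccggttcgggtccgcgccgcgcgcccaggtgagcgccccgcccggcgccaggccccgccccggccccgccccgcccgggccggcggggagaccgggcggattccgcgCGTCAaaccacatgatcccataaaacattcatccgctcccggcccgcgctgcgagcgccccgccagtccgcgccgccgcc
Unc5b, chr20:29307221-29307520, minus strand: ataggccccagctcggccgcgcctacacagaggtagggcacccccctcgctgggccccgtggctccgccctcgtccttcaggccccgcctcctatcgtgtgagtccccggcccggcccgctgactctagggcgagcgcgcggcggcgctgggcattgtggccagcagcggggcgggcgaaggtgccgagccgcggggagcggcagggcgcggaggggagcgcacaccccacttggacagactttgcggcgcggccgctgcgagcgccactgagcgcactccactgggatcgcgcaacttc
Epha3, chr11:14920376-14920675, minus strand: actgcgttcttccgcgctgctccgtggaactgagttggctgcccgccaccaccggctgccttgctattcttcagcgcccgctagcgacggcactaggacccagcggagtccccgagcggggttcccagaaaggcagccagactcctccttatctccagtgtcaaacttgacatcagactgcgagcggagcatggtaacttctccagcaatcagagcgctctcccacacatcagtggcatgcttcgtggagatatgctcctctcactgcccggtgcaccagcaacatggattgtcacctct

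Of 92 listed effectors and regulators of growth cone turning, 55 had a probe. At 18 h 2 of their 57 probes were higher (10.6% of all probes) and 6 lower (11.3% of all probes), with a median of -0.13 against 0.01 over all probes. Lyn, a Src family kinase, was the lowest at -1.16 (adjusted p = 0.000182) and was at -0.80 at 1 h (adjusted p = 0.0137), by a probe on plate 36, where 37.9% of probes were lower at 18 h and 13.7% at 1 h. Crmp1 and Dpysl2, collapsin response mediators that act downstream of Sema3A, were at -0.78 (adjusted p = 0.00694) and -0.57 (adjusted p = 0.0107), and both probes were on plate 43. The other listed mediators, Dpysl3, Dpysl4 and Dpysl5, did not pass, at -0.13, -0.14 and -0.003 (adjusted p = 0.559, 0.42 and 0.99). Chl1, an adhesion molecule that pairs with neuropilin-1, was at -0.76 (adjusted p = 0.00707), Gpc1, a heparan sulfate proteoglycan that binds Slit, at -0.69 (adjusted p = 0.00308) and the GTPase Rhoa at -0.37 (adjusted p = 0.0319). The higher ones were Rhob, a related GTPase, at 0.64 (adjusted p = 0.000448) and the chemokine receptor Cxcr4 at 0.38 (adjusted p = 0.0409). Each had a second probe, on plate 52, that did not pass, at -0.18 for both genes. Of the 14 genes listed for the myelin inhibitor system 10 had a probe, and 1 of 15 probes was higher (10.6% of all probes) and 4 lower (11.3%) at 18 h, with a median of -0.22. Both probes of Ngfr, a co-receptor of the Nogo receptor, were lower, at -0.43 and -0.83 (adjusted p = 0.0188 and 0.017). Mog, a myelin glycoprotein, was at -1.07 (adjusted p = 0.00549) by a probe on plate 52 and at 0.05 (adjusted p = 0.854) by another. Bcan, a proteoglycan that limits axon growth, had 1 probe higher, at 0.63, and 1 lower, at -0.89, the second on plate 52.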

How the data were processed

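The authors deposited 1 linear ratio of Cy5 over Cy3, treated over control, for each probe of their 2-colour arrays. How they corrected background or normalized is "not given in the sources used here". All 15 arrays were used, grouped by the time in their labels. The log2 of the deposited ratios was taken as it stood. Gene names are those of GEO's annotation of the array, some perhaps outdated (4423 probes with 1 symbol, 2 with several, 663 with none), and the identifiers of all 30 member genes matched the GRCr8 gene table with no change of symbol. Probes of a gene were tested separately. A probe was tested at a time with at least 2 of its 3 arrays. Tests used limma 3.58.1 in R 4.3.3 (lmFit, eBayes, 1 mean per time, two-sided, Benjamini-Hochberg over all probes) and were checked on simulated data. The members, lists and alternatives were chosen with earlier results of these data known. The text names every member called at any time and every gene with 2 probes, prints every array for members called at 18 h or at 3 or more times, and gives the rest by range. The alternatives were array and plate centring, scaling, a replicate block, other filters, a robust prior, array weights, a threshold of 0.01, the arrays of a time alone, the methods' t-test and leaving out arrays. The fit without 3 wide arrays was chosen after seeing the data. Figures come from matplotlib 3.10.9.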

Additional observations from a re-analysis of the deposited data

Results flagged for a closer look

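For 4 genes all 3 arrays of 1 time lay above 0 and all 3 of another time below 0. Over the 10 pairs of times this held for 4 of the 36 probes (11.1%), against 16.2% of all probes. Except for the change of Rtn4 between 18 h and 1 h, these differences were not tested singly. The F test over the 5 times gave adjusted p = 0.297 for Rtn4 27H08, 0.617 for Efnb1, 0.624 for Robo1 and 0.618 for Unc50. Rtn4 27H08, with a mean of 0.105 at 1 h, was below 0 at every later time. Its mean difference from 1 h was -0.25 at 3 h, -0.51 at 6 h, -0.44 at 12 h and -0.23 at 18 h (limma, adjusted p = 0.5). Efnb1 was at 0.40 at 18 h and -0.22 at 6 h, a difference of 0.62. Robo1 stood at 0.12 at 3 h and at -0.37 at 1 h, a difference of 0.49. Against 3 h it differed by -0.64 at 6 h, where array 3 was at -1.38, and by -0.48 at 18 h. Unc50 was at -0.23 at 12 h and 0.25 at 1 h, a difference of -0.49.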

How the results depend on the processing

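Of 30 called log2 ratios of single members, centring arrays on their medians, a robust prior and the replicate block ended none, scaling to a common spread ended 5, array weights 7, plate centring 11, the threshold of 0.01 12, the 3 arrays of a time alone 19 and the methods' t-test all 30. The direction turned once, for Ntn3 at 18 h with plate centring, at 0.0004. Leaving out 1 array ended 28 of 88.

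The number of members called changed by more than 1.5 times in these cases, apart from those said below to stay within that or without change. The cause was not tested. In the main fit 2.33% of all probes were called at 1 h, 2.87% at 3 h and 4.19% at 6 h. The share was 8.58% at 12 h, 22% at 18 h, 2.74% for 18 h against 1 h and 1.87% for the F test. With array weights the number of members called was 6 at 1 h (7.42% of all probes), 11 at 3 h (11.2%) and 4 at 12 h (4.63%). It was 1 for 18 h against 1 h (2.82%) and 1 for the F test (2.78%). At 18 h it was 9 (13.4%), within 1.5 times. Scaled to a common spread it was 5 at 1 h (5.68%), 7 at 3 h (6.32%) and, within 1.5 times, 8 at 18 h (11.8%). From the arrays of a time alone it was 9 at 3 h (6.99%), 0 at 6 h (0.198%), 0 at 12 h (0.0997%) and 5 at 18 h (3.66%). At an adjusted p under 0.01 it was 2 at 6 h (1.88%) and 4 at 12 h (3.51%). Without the 3 wide arrays it was 5 at 3 h (4.18%) and 1 for 18 h against 1 h (5.49%). The methods' t-test gave 0 at 1 h, 0 at 3 h, 0 at 6 h, 0 at 12 h and 0 at 18 h after Benjamini-Hochberg adjustment, and called 1 of all probes at 18 h. At its own unadjusted threshold it called 8 of 36 members at 18 h, against 18.1% of all probes. Leaving out 1 array gave 1 to 2 at 6 h (2.05% to 3% of all probes) and 3 to 8 at 12 h (2.86% to 11%), of which 8 stayed within 1.5 times. Also within 1.5 times were 2 at 1 h (0.479% to 0.874%), 2 at 3 h (1.05% to 1.57%) and 10 to 11 at 18 h (16.3% to 18.5%). Leaving out a replicate number left 0 for 18 h against 1 h (0.243% to 0.404%) and 0 for the F test (0.103% to 0.124%), without change. Without array 1 or 2 of 6 h, Chn1 and Chn2 were not tested at that time.

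The replicate numbers did not pair the arrays. Deviations of same-numbered arrays correlated between -0.06 and 0.06 over 30 pairs, and 2 of 15 arrays correlated best with their own number. With the replicate block the counts of members were 3, 3, 4, 9 and 11 over the 5 times and 0 for both tests over times. The shares of all probes at the 5 times were 2.37%, 2.91%, 4.17%, 8.34% and 22%. Over all probes the F test called 52 with the block and 93 without it.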
